A study of Homo sapiens with 30 samples.

Results

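KCNJ3, KCND2, KCNN2, CACNA1H, GRIK2 and ADRA2A are genes of 4 ion channels and 2 neurotransmitter receptors whose RNA level differed between prostate cancer cell lines with different forms of mTOR. They are 6 of the 58735 genes in the deposited tables, and all 6 passed the filter on low counts that left 18296 genes for testing. They were chosen by their difference between the rescue lines and the empty vector, with no threshold named. That contrast is therefore described here without a test, and the tests below concern the response to androgen and the differences among the rescue lines.

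The cells were LNCaP, an established human prostate cancer line that grows in response to androgen, and all of them carried a short hairpin RNA against MTOR. An inducible system then supplied 1 of 5 rescue constructs. EV was the empty vector and WT the unaltered kinase. NES carried a signal that sends mTOR out of the nucleus, and NLS a signal that sends it in. NLSKD was the nuclear form made kinase-dead by D2357E. Each of these 5 lines spent 48 h in 2% charcoal-stripped serum, which removes steroids, and then 24 h with either 10 nM of the synthetic androgen R1881 or the vehicle, 0.1% ethanol. Every one of the 10 groups had 3 libraries of total RNA, 30 in all. The labels call them triplicates without saying whether they came from separate cultures, or whether a line was 1 clone, so p-values measure the spread between these libraries, which may be technical.

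Potassium channels let potassium leave or enter the cell and hold the membrane voltage at rest, whereas voltage-gated calcium channels and glutamate-gated channels let calcium or sodium in. KCNJ3 encodes a subunit of the inward rectifier channels that the beta and gamma subunits of G proteins open. KCNN2 encodes a small-conductance channel opened by calcium through bound calmodulin, and KCND2 a voltage-gated channel that carries a rapidly inactivating current. CACNA1H encodes the pore of a T-type calcium channel, which opens at small depolarizations. GRIK2 encodes a subunit of kainate-type glutamate receptors, and ADRA2A the alpha2A adrenergic receptor, which couples noradrenaline and adrenaline to inhibitory G proteins. Most of these genes are best known from neurons and heart muscle, and alpha2A receptors also act in many other tissues.

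The positions of all 6 genes in the deposited table were those of GENCODE release 29 on GRCh38. KCNJ3 lies at chr2:154698299-154858352, KCND2 at chr7:120273668-120750331, KCNN2 at chr5:114055545-114496500, CACNA1H at chr16:1153121-1221772, GRIK2 at chr6:101181257-102070083 and ADRA2A at chr10:111077163-111080907, all on the plus strand. Values are of whole genes, with no split by exon or transcript, and in such bulk RNA fewer cells with a transcript and less of it per cell cannot be told apart. No overlapping gene exceeded 15 counts in any library. RefSeq start regions (GRCh38.p14) were matched for 5 of the 6 genes, all but CACNA1H, and 4 stretches upstream of a start are printed because these genes moved with androgen in opposite directions in several lines: ADRA2A and KCNN2 rose, and GRIK2 and KCNJ3 fell. The letters AGAACA, a half-site that the androgen receptor can bind, and TATAAA, the TATA box, are in capitals where found on either strand. The KCNN2 stretch was cut where an annotated GENCODE exon begins. The KCNJ3 window begins inside an annotated exon, so only the bases around its half-site are printed.
ADRA2A, chr10:111076779-111077028, 250 bases up to the start: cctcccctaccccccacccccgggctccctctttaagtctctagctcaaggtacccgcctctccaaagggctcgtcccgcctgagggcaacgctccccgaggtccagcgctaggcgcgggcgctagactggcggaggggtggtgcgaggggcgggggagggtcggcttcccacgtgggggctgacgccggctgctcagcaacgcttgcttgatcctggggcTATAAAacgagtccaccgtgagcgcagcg
GRIK2, chr6:101393458-101393707, 250 bases up to the first of its 2 starts: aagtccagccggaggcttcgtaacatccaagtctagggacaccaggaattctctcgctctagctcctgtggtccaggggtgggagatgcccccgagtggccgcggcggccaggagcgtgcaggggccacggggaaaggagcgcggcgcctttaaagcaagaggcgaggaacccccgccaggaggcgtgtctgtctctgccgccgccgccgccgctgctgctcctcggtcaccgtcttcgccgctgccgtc
KCNN2, chr5:114361820-114361963, 144 bases that end 106 bases before the start: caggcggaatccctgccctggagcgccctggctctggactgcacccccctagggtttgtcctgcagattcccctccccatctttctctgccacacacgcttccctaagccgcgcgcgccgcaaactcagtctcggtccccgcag
KCNJ3, chr2:154698533-154698562, 30 bases that end 132 bases before the start: cttgagtgcgggAGAACActttttaaagac

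In the 250 bases before the start, the half-site AGAACA was found once, 150 bases before the start of KCNJ3, and in none of the windows of KCND2, KCNN2, GRIK2 (2 windows) or ADRA2A. Of 35116 RefSeq windows of the same length, 12.4% held it. The full androgen response element, an inverted repeat of that half-site with 3 bases between, was in none of the members' windows and in 0.00285% of all windows. ADRA2A had TATAAA at 29 bases before its start, a motif held by 10.7% of all windows. These matches describe letters in short windows only. RefSeq places the start of KCNN2 306525 bases, the first start of GRIK2 212451 bases and that of KCNJ3 396 bases inside the gene as the deposited table bounds it.

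Depth lay between 21.4 and 61.8 M counts a library, and NES under R1881, replicate 1, was the deepest. Mitochondrial genes took 3.90% to 11.7% of the counts. They took over 9% in EV vehicle replicate 3, in NES R1881 replicate 2 and in replicate 2 of NLS vehicle, NLS R1881 and NLSKD vehicle. MTOR itself, which includes any transcript of the rescue construct, was at 20.3 to 29.7 CPM (reads of a gene relative to the library total, with TMM scaling) in EV under vehicle and at 55.4 to 73.9 CPM in EV under R1881, and every rescue library was above them, with 596 to 2004 CPM in WT, NLS and NLSKD and 3183 to 7593 CPM in NES. All 11 luminal prostate markers were tested and present, with a summed FPKM of 759 to 3037. Of the neuroendocrine list, ENO2 was at 1.92 to 8.74 FPKM and SYP reached 76 counts, and group means of its summed FPKM ran from 2.95 (WT R1881) to 7.05 (NLS vehicle). Of the neuronal markers, SNAP25 and ELAVL4 stayed within 3 counts in every library, as did NEUROD1 and INSM1 of the neuroendocrine list, and CHGA did not exceed 7 counts. Group means of the summed neuronal list ran from 0.351 FPKM (WT vehicle) to 3.16 (NES R1881), mostly MAP2. The mesenchymal list, mostly FN1, VIM and COL1A1 with CDH2 and COL1A2 within 3 counts, had a mean sum of 14.1 FPKM in EV and 15.7 to 22.1 in the rescue lines under vehicle, and of 9.64 and 12.0 to 15.4 under R1881. EV libraries overlapped those of NLS and NLSKD on that list, and not those of WT or NES. The part of these markers in the results was not tested. Replicate 2 had the lowest value of its group for 6 of 6 members in NLS under vehicle, NLS under R1881 and NLSKD under R1881, and for 5 of 6 in both EV groups.

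KCNJ3, the G protein-gated channel subunit, was highest in EV and lowest in NES. Under vehicle it was at 108, 70.9 and 104 CPM in EV, at 2.10, 3.66 and 3.85 in WT, at 0.743, 0.0883 and 0.284 in NES, at 14.9, 7.33 and 9.42 in NLS, with 10.5, 8.27 and 7.07 in NLSKD. Under R1881 it was at 37.4, 23.6 and 36.3 CPM in EV, at 0.699, 1.08 and 1.07 in WT, at 5.85, 1.58 and 1.75 in NLS, with 3.23, 1.78 and 2.50 in NLSKD. In NES under R1881 the raw counts were 12, 0 and 0, where 3 counts is the limit that a count of 0 allows. No rescue library overlapped EV under either treatment, and NES did not overlap NLS or NLSKD. Against EV, the fitted log2 fold change ran from -7.92 to -3.15 under vehicle and from -8.23 to -3.37 under R1881.

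KCNN2, the calcium-activated channel gene, was also lower in each rescue line than in EV, by a smaller ratio. Vehicle libraries had 169, 149 and 202 CPM in EV, 37.3, 29.5 and 24.1 in WT, 63.8, 53.7 and 66.4 in NES, 37.7, 32.7 and 38.5 in NLS, with 51.4, 49.9 and 42.4 in NLSKD. With R1881 it reached 478, 408 and 488 CPM in EV, 196, 215 and 236 in WT, 273, 252 and 263 in NES, 228, 145 and 203 in NLS, with 214, 175 and 195 in NLSKD. Every line had more KCNN2 with R1881 than without, and the 4 rescue means under R1881 (192 to 263 CPM) were above the EV mean under vehicle (173), whose libraries overlapped those of WT, NLS and NLSKD. The log2 fold change against EV was -2.52 to -1.50 under vehicle and -1.26 to -0.80 under R1881, with SE of 0.17 to 0.18.

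KCND2, the voltage-gated potassium channel gene, was near the limit of detection in EV and present in every rescue line. Its raw counts in EV were 18, 1 and 2 under vehicle and 13, 5 and 9 under R1881. Under vehicle the rescue lines had 6.34, 5.42 and 5.38 CPM in WT, 2.27, 1.81 and 2.56 in NES, 2.40, 1.62 and 3.25 in NLS, with 1.17, 1.07 and 1.78 in NLSKD. R1881 libraries had 14.9, 12.9 and 13.8 CPM in WT, 2.83, 3.03 and 2.82 in NES, 9.73, 2.87 and 7.41 in NLS, with 5.59, 3.31 and 9.76 in NLSKD. WT held the highest level under both treatments and did not overlap another line within a treatment. The fitted log2 fold change against EV of 2.26 to 4.35 under vehicle rests on few counts: in WT it was 4.35 ± 0.57 (SE), and 6.43 without EV vehicle replicate 1. In NES, NLS and NLSKD leaving out that library moved it from 2.98, 3.11 and 2.26 to 5.09, 5.23 and 4.37.

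CACNA1H, the T-type calcium channel gene, separated EV from the rescue lines at both treatments. In EV it was at 4.39, 3.46 and 1.85 CPM under vehicle and at 4.16, 2.32 and 2.22 under R1881. In the vehicle libraries of the rescue lines it was at 28.5, 24.7 and 24.1 CPM in WT, at 23.3, 28.0 and 28.2 in NES, at 21.2, 15.9 and 16.9 in NLS, with 16.5, 11.5 and 11.4 in NLSKD. With R1881 the values were 18.8, 37.6 and 29.03 CPM in WT, 31.6, 29.04 and 32.1 in NES, 23.1, 17.7 and 22.9 in NLS, with 11.5, 9.31 and 10.5 in NLSKD. WT and NES overlapped at the top, and NLSKD had the lowest mean of the rescue lines under both treatments, with 1 vehicle library inside the range of NLS. The lowest log2 fold change against EV was 1.84 ± 0.28 in NLSKD under R1881, and the highest 3.41 ± 0.29 in NES under R1881.

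GRIK2, the kainate receptor subunit, had its highest level in WT under vehicle and its lowest in EV under R1881. Vehicle libraries had 8.62, 3.22 and 8.001 CPM in EV, 120, 115 and 117 in WT, 78.0, 42.4 and 40.3 in NES, 78.6, 40.4 and 80.8 in NLS, with 58.1, 54.6 and 65.0 in NLSKD. R1881 libraries had 1.49, 0.613 and 1.37 CPM in EV, 42.3, 49.9 and 45.5 in WT, 17.2, 13.7 and 14.5 in NES, 42.7, 17.9 and 31.8 in NLS, with 25.0, 17.7 and 36.2 in NLSKD. Each line was lower under R1881, and every rescue library was above all EV libraries of its treatment. The log2 fold change against EV was 3.02 to 4.15 under vehicle and 3.70 to 5.30 under R1881.

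ADRA2A, the adrenergic receptor gene, was higher in every rescue line than in EV, and NLSKD was the lowest of the 4. It was at 12.2, 6.23 and 14.7 CPM in EV under vehicle and at 28.3, 16.2 and 20.5 under R1881. Vehicle libraries of the rescue lines had 170, 134 and 117 CPM in WT, 134, 116 and 142 in NES, 95.8, 53.8 and 87.0 in NLS, with 43.5, 39.0 and 33.7 in NLSKD. Under R1881 they had 302, 377 and 388 CPM in WT, 254, 177 and 215 in NES, 232, 106 and 205 in NLS, with 102, 67.8 and 77.8 in NLSKD. NLSKD stayed below the 3 other rescue lines within each treatment with no overlap. Against EV the log2 fold change was 1.81 ± 0.30 (NLSKD) to 3.67 ± 0.32 (WT) under vehicle and 1.93 ± 0.30 (NLSKD) to 4.04 ± 0.32 (WT) under R1881.

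**Figure D1:**
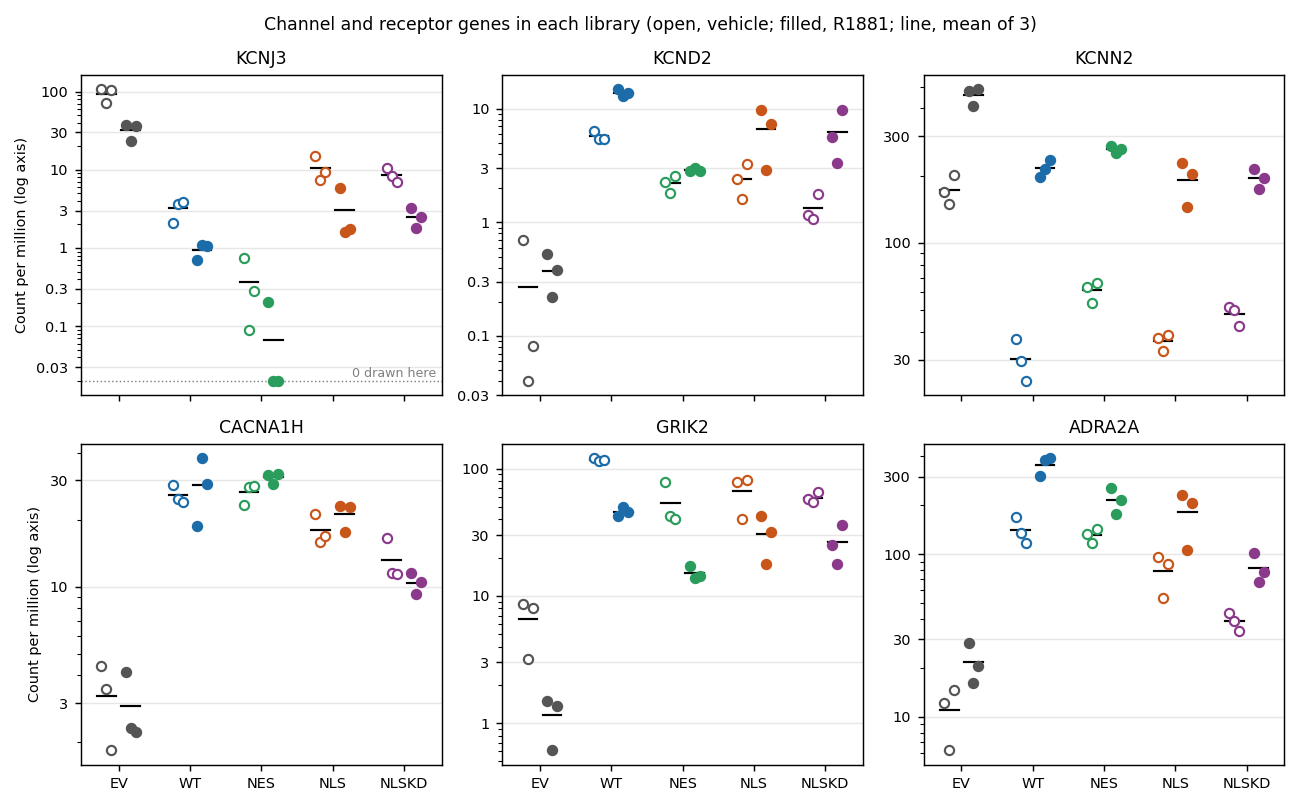
CPM (log axis) of each gene in every library of the 5 lines; open points are vehicle, filled points R1881, and black lines the mean of 3 libraries. KCNJ3 and KCNN2 sit highest in EV and the other 4 genes lowest in EV, and the 2 NES libraries with 0 counts of KCNJ3 are drawn on the dotted line.

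In all 48 comparisons of a member in a rescue line with EV at the same treatment, the 3 rescue libraries did not overlap the 3 EV libraries. Of all tested genes, the share with no such overlap under vehicle was 23.4% (WT), 15.6% (NES), 18.1% (NLS) and 17.7% (NLSKD), and under R1881, in the same order, 26.4%, 27.7%, 17.7% and 20.8%. KCNJ3 and KCNN2 were lower in all 4 rescue lines and KCND2, CACNA1H, GRIK2 and ADRA2A higher, at both treatments. These are the values that chose the members, and the 4 lines were set against the same EV libraries. The share of all genes with an adjusted p under 0.05 under vehicle was 6.71% (WT), 4.94% (NES), 4.57% (NLS) and 4.01% (NLSKD). Under R1881, in the same order, it was 8.49%, 6.96%, 6.23% and 5.75%. The median size of the 48 log2 fold changes, without sign, was 3.16, and the same median over all tested genes was 0.24 to 0.32 in the 8 comparisons. Since the members were picked for these differences, nothing is read from that gap. On log2(FPKM + 1) that median size was 1.75, on a scale whose added constant shrinks the folds of low genes such as KCND2.

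**Figure D2:**
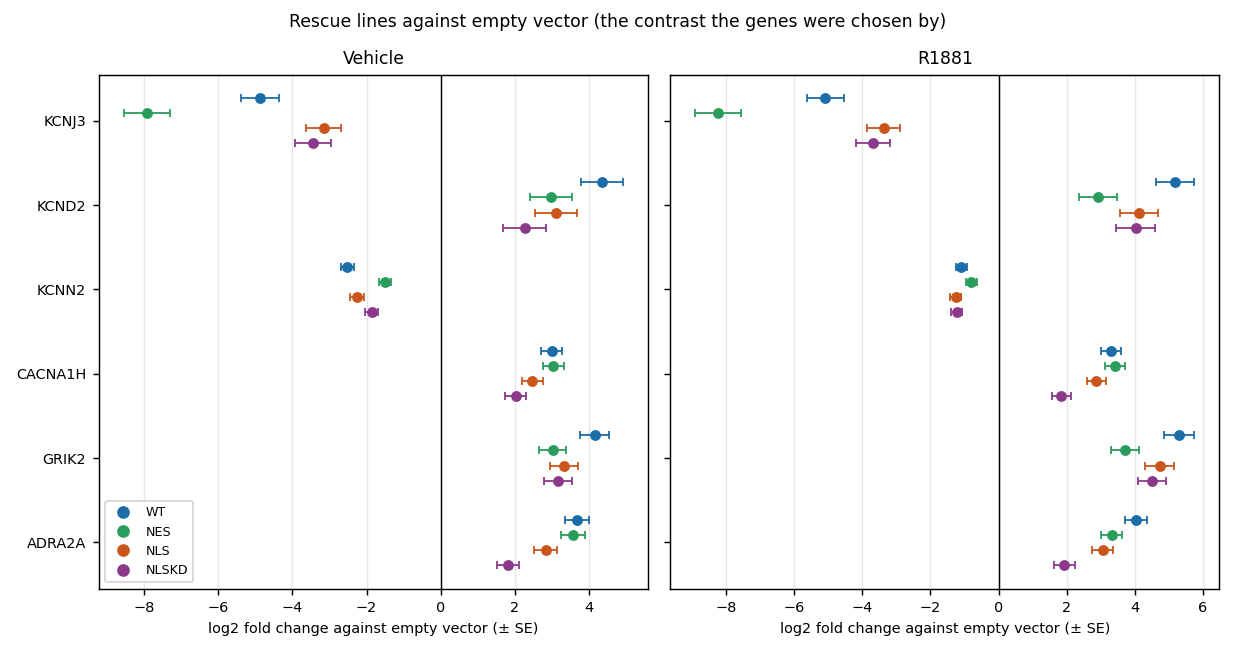
Log2 fold change (± SE) of each gene in the 4 rescue lines against EV, under vehicle (left) and R1881 (right), from the fit of 30 libraries. KCNJ3 in NES lies farthest from 0 (-7.92 and -8.23), and KCNN2 lies closer to 0 under R1881 (-1.26 to -0.80) than under vehicle (-2.52 to -1.50).

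The first tested question was how each line's members responded to androgen. By the calls of the reported fit, R1881 raised KCNN2 in all 5 lines and ADRA2A in EV, WT, NLS and NLSKD. It lowered KCNJ3 in EV, WT, NLS and NLSKD, and GRIK2 in EV, WT and NES. GRIK2 was also lower in NLS (-1.11) and NLSKD (-1.17), short of the threshold. KCND2 rose in NLSKD, and CACNA1H passed the test in no line. Of the 30 tests (6 genes in 5 lines), 10 were higher and 7 lower at an adjusted p under 0.05 (edgeR's quasi-likelihood test with Benjamini-Hochberg adjustment over 18296 genes). That fit ignored the replicate numbers. With a block on them 22 tests passed, where 1088 to 2495 genes passed per line, against 746 to 1666 without the block. By line, 4 of 6 members passed in EV, where 9.11% of all genes did, 4 in WT (6.48%), 2 in NES (8.25%), 3 in NLS (4.44%), with 4 in NLSKD (4.08%).

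KCNN2 rose by a log2 fold change of 1.40 ± 0.17 (SE) in EV (adjusted p = 1.73e-06), 2.83 ± 0.18 in WT (2.83e-11), 2.10 ± 0.18 in NES (3.52e-09), 2.40 ± 0.18 in NLS (7.47e-10), with 2.02 ± 0.18 in NLSKD (9.86e-09). All 3 R1881 libraries were above all 3 vehicle libraries in each of the 5 lines, and the call held in every alternative run. Per line, 13.7% (NLS) to 24.6% (NES) of all genes had no overlap between the treatments. In linear terms the mean went from 173 ± 26.6 to 458 ± 43.6 CPM (SD, n = 3) in EV and from 30.3 ± 6.59 to 216 ± 19.8 CPM in WT. The WT values with androgen overlapped those of EV without it.

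The KCNJ3 decrease was of similar size in the lines that passed: -1.54 ± 0.44 in EV (adjusted p = 0.0245), -1.75 ± 0.51 in WT (0.0375), -1.75 ± 0.46 in NLS (0.0235) and -1.78 ± 0.47 in NLSKD (0.0270). In NES, where KCNJ3 had few counts, it was -1.84 ± 0.82 (adjusted p = 0.205), and without R1881 replicate 1, the one library of that group with counts, it was called (fitted -6.27, adjusted p = 0.0358). In the 4 called lines no vehicle library overlapped an R1881 library, as for 13.7% (NLS) to 23.8% (WT) of all genes. The calls were close to the threshold. In EV leaving out any library but vehicle replicate 2 ended the call (adjusted p 0.0588 to 0.126), and in WT any but vehicle replicate 1 (0.0940 to 0.140). In NLS it ended without vehicle replicate 1, R1881 replicate 2 or R1881 replicate 3 (0.108 to 0.166), and was -2.66 with an adjusted p of 0.000897 without R1881 replicate 1. In NLSKD it ended without vehicle replicate 1 or 2 or R1881 replicate 2 or 3 (0.0618 to 0.140). Without the 5 libraries above 9% mitochondrial counts the EV (adjusted p = 0.0516) and NLS (0.128) calls ended, as did NLS with only its 2 groups in the fit (0.320) and WT on log2(FPKM + 1) (-0.45, 0.224).

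GRIK2 fell with androgen, with a log2 fold change of -2.50 ± 0.40 in EV (adjusted p = 8.71e-05), -1.82 ± 0.35 in NES (0.000835) and -1.35 ± 0.34 in WT (0.0133), with no overlap between the 3 vehicle and 3 R1881 libraries of each line. Of all genes, 22.3% (EV) to 24.6% (NES) had no such overlap in these lines. The GRIK2 value in WT lost its call without R1881 replicate 1 (adjusted p = 0.0557) or R1881 replicate 3 (0.0550). On log2(FPKM + 1) the EV value was -0.67 with an adjusted p of 0.105. In NLS the log2 fold change was -1.11 ± 0.34 (0.0686) and in NLSKD -1.17 ± 0.35 (0.0546), neither past the threshold. Of 15 alternative runs each, 6 called the fall in NLS and 9 that in NLSKD. DESeq2 gave -1.11 (adjusted p = 0.0292) in NLS and -1.19 (0.0161) in NLSKD. The fit with a replicate block, which shared the replicate numbers across all lines, gave -1.21 and an adjusted p of 0.00266 in NLSKD. It was not a paired test within NLSKD. NLS vehicle replicate 2 was far below its 2 fellow libraries, and without it the NLS response was -1.37 (adjusted p = 0.0267). Without NLS R1881 replicate 1 it was -1.42 (0.0328), and without NLSKD R1881 replicate 3 the NLSKD response was -1.5 (0.0272).

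ADRA2A rose by 1.34 ± 0.29 in WT (adjusted p = 0.00302), 1.2 ± 0.29 in NLS (0.0114), 1.09 ± 0.29 in NLSKD (0.0256) and 0.97 ± 0.29 in EV (0.0353), again with no overlap between treatments. Of all genes, 13.7% (NLS) to 23.8% (WT) had no such overlap in these lines. In NES the ADRA2A value was 0.72 ± 0.29 (adjusted p = 0.138), and 0.70 with an adjusted p of 0.0262 under the replicate block. The WT call held without any 1 library. The other 3 were less firm: EV lost it in 4 of 6 such fits (without vehicle replicate 1 or 2 or R1881 replicate 1 or 3, adjusted p 0.0633 to 0.213), NLS in 3 of 6 (without vehicle replicate 2 or R1881 replicate 1 or 3, 0.0608 to 0.101) and NLSKD in 5 of 6 (all but R1881 replicate 2, 0.0587 to 0.193). With only the 2 groups compared in the fit the EV (adjusted p = 0.109) and NLS (0.274) calls also ended, and on log2(FPKM + 1) that of EV (0.0573).

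KCND2 rose by 2.21 ± 0.49 in NLSKD (adjusted p = 0.00531), a call lost without R1881 replicate 3 (1.70, adjusted p = 0.0660). It was 1.28 ± 0.45 in WT (0.102) and 1.47 ± 0.47 in NLS (0.0784), where NLS R1881 replicate 2 overlapped the vehicle libraries and leaving it out gave 1.82 (0.0171). In WT the 3 R1881 libraries were above all vehicle libraries, where 23.8% of all genes had no overlap. The replicate block gave KCND2 in WT an adjusted p of 0.0190. Of 15 alternative runs each, 7 called the rise in WT and 5 that in NLS. In EV it was 0.45 ± 0.66 (0.831) at 1 to 18 counts a library, and in NES 0.38 ± 0.47 (0.737), with 95% intervals of -0.91 to 1.80 and -0.58 to 1.35. CACNA1H lay between -0.33 ± 0.26 in NLSKD and 0.24 ± 0.26 in NLS, with adjusted p from 0.722 to 0.890. The 5 CACNA1H intervals reached from -0.87 (NLSKD) to 0.77 (NLS).

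**Figure D3:**
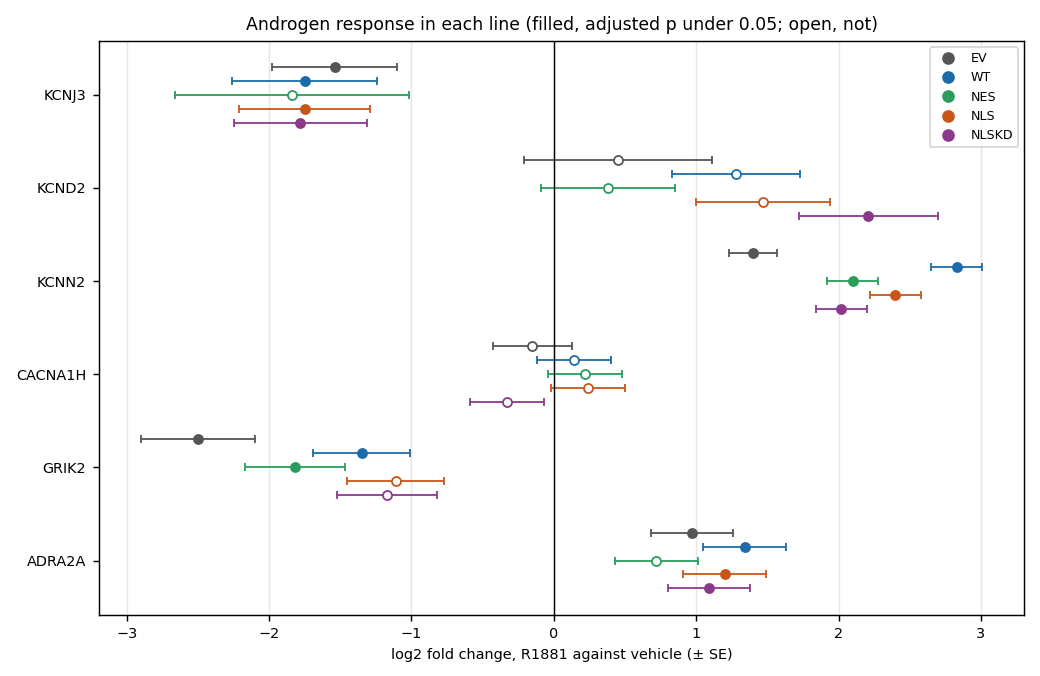
Log2 fold change (± SE) of R1881 against vehicle in each line, filled where the adjusted p was under 0.05. KCNN2 is filled in all 5 lines (1.40 to 2.83), KCNJ3 and GRIK2 lie below 0 in all 5, and CACNA1H lies within 0.33 of 0.

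Whether a rescue line's response differed from that of EV was fitted as an interaction term for 6 genes in 4 lines. That term equals the difference from EV under R1881 minus the one under vehicle, so it is built from the values that chose the members and is not independent of their choice. KCNN2 in WT passed, with a response 1.43 ± 0.24 larger than in EV on the log2 scale (adjusted p = 0.0142), where 0.0437% of all genes passed. It was 1 of 24 tests, and the other 23 did not pass. KCNN2's response was also larger by 1.0 ± 0.24 in NLS (adjusted p = 0.288), 0.70 ± 0.24 in NES and 0.62 ± 0.24 in NLSKD (adjusted p 0.9999 and above), none past the threshold. Among all genes, 0% passed for NES, 0.0164% for NLS and 0.0164% for NLSKD, and all 4 interactions share the EV libraries. The WT call ended in 6 of the 12 fits that each left out 1 library (without EV vehicle replicate 3, WT vehicle replicate 2 or 3, EV R1881 replicate 1 or 2, or WT R1881 replicate 3, adjusted p 0.0516 to 0.0864, log2 difference 1.28 to 1.47), and with only the 4 groups compared in the fit (1.44, adjusted p = 0.0731). For GRIK2 the fall was smaller than in EV by 1.15 ± 0.52 in WT, 0.68 ± 0.52 in NES, 1.39 ± 0.52 in NLS, with 1.33 ± 0.52 in NLSKD and adjusted p of at least 0.992. KCNJ3's 4 differences were between -0.31 and -0.21 with SE of 0.62 to 0.84, and their 95% intervals together reached from -2.04 to 1.43.

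The second tested question was how the members differed among the rescue lines, both treatments averaged. No EV library enters these 6 line pairs, although the rescue libraries were in view when the members were chosen. Of 36 tests, 5 were higher and 13 lower in the first line named. By pair, 4 of 6 members passed in NES against WT (4.44% of all genes), 2 in NLS against WT (2.31%), 5 in NLSKD against WT (2.81%), 2 in NLS against NES (3.88%), 4 in NLSKD against NES (5.96%) and 1 in NLSKD against NLS (0.0328%). The 6 pairs share their libraries.

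NES had the least KCNJ3 of the rescue lines: its log2 difference from WT was -3.09 ± 0.46 (adjusted p = 9.47e-05), and NLS and NLSKD were 4.81 ± 0.44 (1.06e-07) and 4.50 ± 0.44 (1.78e-07) above NES. Without NES R1881 replicate 1, which holds all KCNJ3 counts of its group, the fitted NES to WT difference was -5.28 (adjusted p = 6.2e-05). On log2(FPKM + 1), a scale that compresses such low values, the NES to WT difference was -0.41 with an adjusted p of 0.112. KCNJ3 was also higher than in WT in NLS (1.72 ± 0.35, adjusted p = 0.00495) and in NLSKD (1.41 ± 0.35, 0.0205). The NLSKD call ended without replicate 1 of WT or of NLSKD under either treatment (0.0556 to 0.0649). NLS and NLSKD did not differ detectably in KCNJ3 (-0.31 ± 0.32, 95% interval -0.98 to 0.36, adjusted p = 0.935).

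KCNN2 was higher in NES than in WT (0.65 ± 0.12, adjusted p = 0.00110), and lower in NLS than in NES (-0.60 ± 0.12, 0.00292). NLSKD minus NES was -0.39 ± 0.12 (0.0496), a call lost in 11 of the 12 fits that left out 1 library (all but NES vehicle replicate 2, adjusted p 0.0518 to 0.136) and, in 4 other settings, at adjusted p from 0.0502 to 0.213. KCND2 was lower than in WT in NES (-1.81 ± 0.33, adjusted p = 0.000912) and in NLSKD (-1.62 ± 0.33, 0.00405). Its NLS value, -1.14 ± 0.32 against WT, did not pass (0.0622). It passed in 6 of 21 alternative runs, among them DESeq2 (-1.12, adjusted p = 0.0112) and the fit without NLS R1881 replicate 1 (-1.33, 0.0246). GRIK2 was lower than in WT in NES (-1.36 ± 0.24, adjusted p = 0.000789) and in NLSKD (-0.89 ± 0.24, 0.0410). The latter was lost in 11 of 12 such fits (all but NLSKD R1881 replicate 3, 0.0627 to 0.130), and without the 5 libraries above 9% mitochondrial counts (0.0563). GRIK2 in NLS minus NES, 0.67 ± 0.24 (0.150), was called in 3 of 21 alternative runs, among them the fit without NES vehicle replicate 1 (0.86, 0.0455).

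CACNA1H and ADRA2A had their lowest rescue level in NLSKD. CACNA1H in NLSKD differed from WT by -1.21 ± 0.18 (adjusted p = 0.000149) and from NES by -1.29 ± 0.18 (3.86e-05), whereas WT and NES differed by 0.08 ± 0.18 (0.869, 95% interval -0.29 to 0.45). Its difference between NLSKD and NLS was -0.74 ± 0.18, with an adjusted p of 0.306. It was called with DESeq2 (-0.75, 0.0341) and with no filter on low counts (-0.75, 0.0249). ADRA2A in NLSKD differed from WT by -1.98 ± 0.21 (adjusted p = 6.26e-07), from NES by -1.57 ± 0.21 (1.06e-05) and from NLS by -1.08 ± 0.20 (0.0498).

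ADRA2A was 1 of 6 genes of 18296 to pass between the kinase-dead and the kinase-competent nuclear form. All 6 were lower in NLSKD. That ADRA2A call ended in 9 of 12 fits that left out 1 library (without NLS vehicle replicate 1 or 3, any NLSKD vehicle library, NLS R1881 replicate 1 or 3, or NLSKD R1881 replicate 2 or 3, adjusted p 0.0621 to 0.193), with a log2 difference of -1.14 to -0.97 in those fits. It also ended with only the groups compared in the fit (adjusted p = 0.412) and on log2(FPKM + 1) (0.0797) or log2(FPKM + 0.1) (0.101). In each treatment the 3 NLSKD libraries were below the 3 NLS libraries. ADRA2A was also lower in NLS than in WT (-0.90 ± 0.20, adjusted p = 0.0135). Without the 5 libraries above 9% mitochondrial counts, which include NLS replicate 2 of both treatments, that difference was -0.64 (0.123). It also ended without WT vehicle replicate 1 (-0.79, 0.0573) or NLS vehicle replicate 2 (-0.80, 0.0520), or with only the groups compared in the fit (-0.88, 0.0675).

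**Figure D4:**
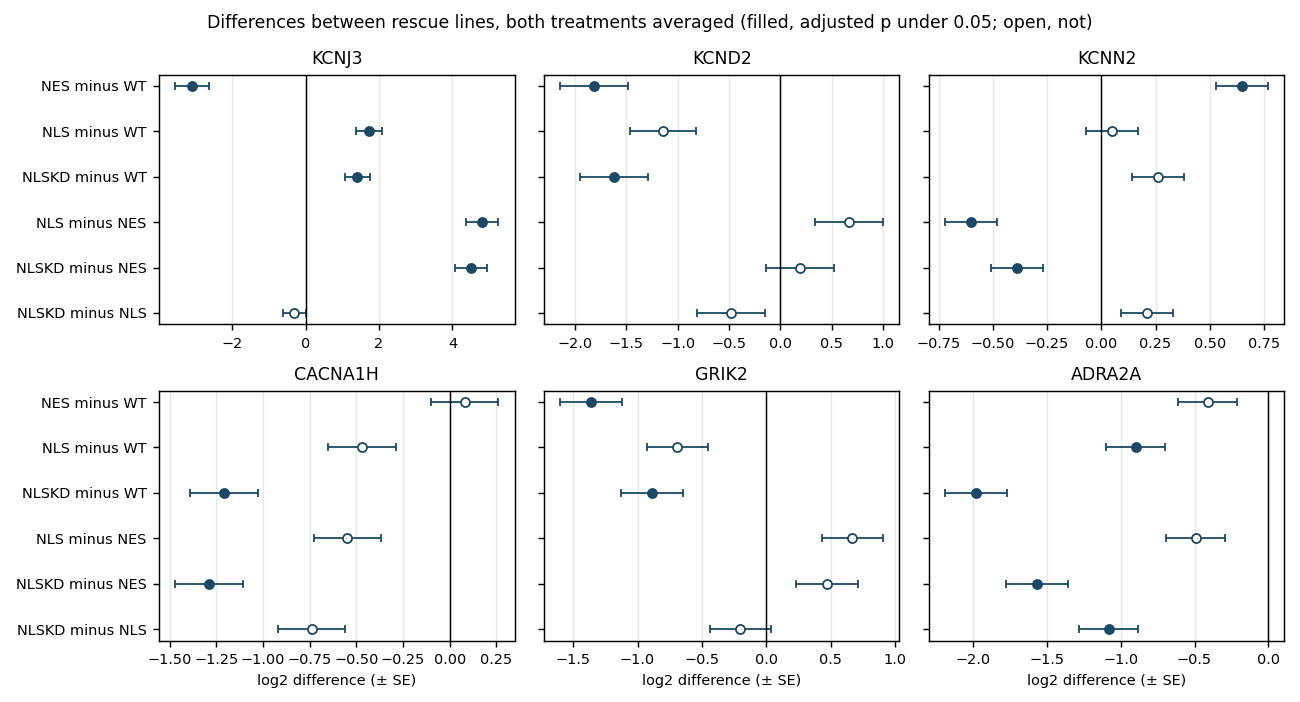
Log2 difference (± SE) between each pair of rescue lines, averaged over treatments, with filled points at an adjusted p under 0.05 and a separate horizontal scale for each gene. ADRA2A is the gene with a filled point for NLSKD minus NLS (-1.08), and KCNJ3 spans the widest range (-3.09 to 4.81).

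The order of the group means differed between members. KCNJ3 ran from 94.0 ± 20.2 CPM (SD, n = 3) in EV under vehicle to 0.0673 ± 0.117 in NES under R1881, and its neighbours in that order overlapped in 5 of 9 steps. ADRA2A ran from 355 ± 46.8 CPM in WT under R1881 to 11.1 ± 4.35 in EV under vehicle, and KCND2 from 13.9 ± 0.992 to 0.272 ± 0.365 CPM in the same 2 groups. GRIK2 ran from 117 ± 2.68 CPM in WT under vehicle to 1.16 ± 0.476 in EV under R1881. For KCNN2 the ends were EV under R1881 (458 ± 43.6) and WT under vehicle (30.3 ± 6.59). For CACNA1H they were NES under R1881 (30.9 ± 1.64) and EV under R1881 (2.90 ± 1.09), and the 4 highest groups, those of NES and WT, overlapped from each to the next.

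Per gene length, on the FPKM scale, some members were the main RNA of their family. KCNN2 had the highest mean FPKM of 11 calcium-activated potassium channel genes in all 10 groups, from 4.61 ± 0.997 (SD, n = 3) in WT under vehicle to 70.6 ± 6.81 in EV under R1881. ADRA2A was first of 9 adrenergic receptor genes in all 10 groups, from 2.92 ± 1.13 in EV under vehicle to 92.6 ± 9.79 in WT under R1881. KCNJ3 was first of 15 inward rectifier genes in the EV groups alone (18.4 ± 3.88 under vehicle and 6.40 ± 1.53 under R1881), with KCNJ11, a subunit of ATP-sensitive channels, first in the other 8 groups. CACNA1H led its family of 10 calcium channel pore genes in the 8 groups of the rescue lines. In EV it did not clearly lead CACNA1D, named after its value was seen: under vehicle CACNA1D had a mean of 0.584 against 0.374 ± 0.151 FPKM, and under R1881 0.312 against 0.337 ± 0.129, where 2 of the 3 CACNA1H libraries were at 0.269 and 0.257. GRIK2 led 26 glutamate receptor genes in the WT, NLS and NLSKD groups and in NES under vehicle. KCND2 led its family of 40 voltage-gated potassium channel genes in no group and reached second place in WT under R1881 (2.44 ± 0.244).

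Other channel and receptor genes were taken from 10 lists of 250 genes without the members, of which 103 passed the filter on low counts. Between 11 (NLSKD under vehicle) and 19 (WT under R1881) of the 103 differed from EV, 10.7% to 18.4%, beside the 4.01% to 8.49% of all genes given above. The medians of the 103 log2 fold changes against EV lay between 0.02 and 0.21. Among those called in all 4 rescue lines under vehicle, KCNH8, KCNQ5 and KCNS3 were higher and KCNC2 and KCNQ1 lower, and among those called in all 4 under R1881, HTR6, KCNH8 and KCNK1 were higher and CHRNA2 lower. KCNS3, KCNC2 and HTR6 fell outside the rule for named genes and are named after their values were seen.

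KCNH8, a voltage-gated potassium channel of the same list as KCND2's relatives, was at 4.11 ± 1.97 CPM (SD, n = 3) in EV and 31.7 ± 0.368 in WT under vehicle (log2 fold change 2.95 ± 0.32, adjusted p = 3.6e-07). The Gi/o list, the G proteins that ADRA2A couples to and whose released subunits open channels with KCNJ3, had 16 tested genes, of which at most 2 passed in any rescue line. GNAI1, an inhibitory alpha subunit, was lower under R1881 in NES (-1.34 ± 0.33, adjusted p = 0.0126), NLS (-1.30 ± 0.33, 0.0167) and NLSKD (-1.70 ± 0.34, 0.00216), and at -0.54 ± 0.33 (0.392) in WT. The mean of GNB4, a beta subunit, went the other way under R1881. It was 37.9 ± 7.61 CPM in EV and 75.4 ± 27.3 (NLSKD) to 89.1 ± 17.1 (NES) in the rescue lines, and EV overlapped NLS and NLSKD. The list of calcium-activated channels and calmodulin, which holds KCNN2's relatives and its calcium sensor, had 6 tested genes and none called in any of the 8 comparisons with EV.

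With androgen, 6 to 16 of the 103 list genes passed in a line, 5.83% in NLSKD to 15.5% in EV, beside 4.08% and 9.11% of all genes in these 2 lines. CHRNA2, a nicotinic acetylcholine receptor subunit, rose in all 5 lines by 5.55 ± 0.34 to 6.11 ± 0.35 (adjusted p at most 1.77e-11), and the NMDA receptor subunit GRIN3A rose in all 5 by 2.33 ± 0.31 to 3.07 ± 0.30. GRIK1, another kainate receptor subunit, fell, with log2 fold changes of -3.46 ± 0.48 in EV (adjusted p = 9.81e-06), -1.86 ± 0.41 in NES (0.00352) and -1.47 ± 0.41 in NLS (0.0333). Its mean went from 1.88 to 0.781 CPM in WT and from 4.03 to 1.88 in NLSKD, without a call in either. GRIK1 was low, with group means of 0.290 (EV R1881) to 4.10 CPM (NLS vehicle). Against EV under vehicle GRIK1 was at -0.80 ± 0.40 (WT) to 0.33 ± 0.39 (NLS), none past the threshold, where GRIK2 was at 3.02 to 4.15. Under R1881 GRIK1 was higher than in EV in NES (1.92 ± 0.48, adjusted p = 0.0127), NLS (2.32 ± 0.48, 0.00246) and NLSKD (2.66 ± 0.48, 0.000707), and at 1.40 ± 0.49 (0.0825) in WT.

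Across the 30 libraries the members fell into more than 1 pattern. The log2 levels of ADRA2A and KCND2 had a Pearson r of 0.90, those of ADRA2A and CACNA1H 0.89, and those of KCND2 and CACNA1H 0.80. KCNJ3 ran against ADRA2A (-0.80) and CACNA1H (-0.79), and KCNN2 against GRIK2 (-0.75), while KCNN2 and KCNJ3, both lower than EV in all rescue lines, had an r of 0.01. These libraries share lines and treatments, so the correlations describe the 10 groups more than separate samples, and members were chosen for a difference from EV.

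By the same measure over 30 libraries and 11798 protein-coding genes, the 3 genes most like each member were, for KCNN2, NEDD4L (0.969), TMCC3 (0.961) and DEGS1 (0.955), and for GRIK2, SLC27A2 (0.960), UGT2B17 (0.953) and MBNL2 (0.949). For CACNA1H they were EPPK1 (0.957), FUCA2 (0.953) and HTATIP2 (0.946), and for KCNJ3, GPX8 (0.938), NMNAT2 (0.937) and TMEM98 (0.931). For ADRA2A they were MARVELD1 (0.925), KLB (0.910) and SIPA1L2 (0.892). For KCND2 they were MYCBP2 (0.903), the two-pore potassium channel KCNK1 (0.884) and SLITRK6 (0.875). KCNK1 rose against EV in all 4 rescue lines under R1881, from 0.74 ± 0.15 in NLS (adjusted p = 0.00276) to 1.26 ± 0.15 in WT (2.44e-06), and was at 0.47 ± 0.15 (0.0805) in NES under vehicle. UGT2B17 has near-identical relatives, so its counts are uncertain.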

How the data were processed

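Per the file headers, the authors deposited 2 tables, one of unnormalized read counts and one of FPKM, by gene and library. HISAT2 2.0.5, featureCounts 1.5.0-p3 and build hg38 are named in the submitters' processing notes, and no source used here gives the strand or multi-mapping settings. The members and gene lists were chosen with earlier results of these data known. Counts were fitted with edgeR 4.0.16 (R 4.3.3; TMM scaling, default expression filter, 1 mean per group, quasi-likelihood test), 30 libraries in 1 fit, Benjamini-Hochberg over 18296 genes, threshold 0.05. An SE is the log2 fold change over the square root of F, and 95% intervals use the t distribution on the fit's degrees of freedom. Genes were named by a fixed rule: the members, MTOR, up to 3 called genes per list by smallest adjusted p against EV, and the 3 genes most correlated with each member (log2 CPM, prior count 2, mean CPM of at least 1). A gene that this rule named is not reported here. Deposited FPKM served to compare genes and, with limma 3.58.1, as an alternative. Other alternatives were DESeq2 1.42.0, RLE scaling, other filters, a replicate block, fewer groups and left-out libraries. The limit for a count of 0 (3 counts) covers counting error alone. No 2 libraries of a group matched within sampling noise (lowest chi-square over its degrees of freedom 11.8). Same-numbered vehicle and R1881 libraries of a line share a replicate number in their titles, and r measured whether they deviated together. Every r was over 0.1 in EV (0.165 to 0.352), WT (0.128 to 0.212), NES (0.250 to 0.516) and NLSKD (0.105 to 0.210). In NLS this did not hold (-0.022 to 0.640). The numbers were taken to pair libraries within those 4 lines, which the titles do not state. The replicate block was shared across all lines, so it was not a paired test within a line.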

Additional observations from a re-analysis of the deposited data

Results flagged for a closer look

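The androgen response of KCNN2 differed between WT and EV by a test of the difference itself: on the log2 scale it was 1.43 larger in WT (2.83 ± 0.18 against 1.40 ± 0.17, SE; adjusted p = 0.0142, edgeR). This difference is made of the values against EV that chose the gene, so it is not independent of the choice. The call ended in 6 of the 12 fits that left out 1 library (adjusted p 0.0516 to 0.0864) and with only the groups compared in the fit (0.0731). KCNN2 under vehicle was at 30.3 ± 6.59 CPM (SD, n = 3) in WT and 173 ± 26.6 in EV, and under R1881 at 216 ± 19.8 and 458 ± 43.6. All 3 R1881 libraries exceeded all 3 vehicle libraries in both lines. Of all genes, 23.8% in WT and 22.3% in EV had no overlap between the treatments. Groups of 3 libraries were not searched for single outlying samples.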

How the results depend on the processing

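Of the 30 androgen tests, 17 passed in the reported fit and 16 to 23 in the 9 alternative settings, and 15 to 19 with 1 library left out. Of the 36 tests between rescue lines, 18 passed, 15 to 23 in the alternatives and 14 to 19 with 1 library left out. Of the 24 interaction tests, 1 passed in the reported fit, 2 in DESeq2, 2 with the replicate block, 2 with limma on log2(FPKM + 1), 0 with only the groups compared, and 0 to 1 with 1 library left out. The median size of the 48 differences from EV was 3.16, moved to 1.75 by limma on log2(FPKM + 1), and was 3.07 to 3.34 with 1 library left out. KCNJ3's difference in response between NES and EV, -0.31 and not called, became 1.31 and called with limma on log2(FPKM + 1). On the FPKM scale KCNJ3 in NES had means of 0.0729 (vehicle) and 0.0129 (R1881), far below the added constant of 1. In EV they were 18.4 and 6.40. The cause was not tested. The replicate block raised the androgen calls to 22. Besides the values given in the report, it brought the NLS responses of KCND2 (1.42, adjusted p = 0.0172) and GRIK2 (-1.12, 0.00500) and KCNN2's difference in response between NLS and EV (0.99, 0.0417) past the threshold. In NLS the same-numbered libraries had an r of 0.32 (replicate 1), 0.64 (replicate 2) and -0.02 (replicate 3). Between lines, r was over 0.1 in 80 of 120 same-numbered pairs and in 44 of 240 pairs with other numbers. Of 30 libraries, 23 correlated best with their own number. Between rescue lines, where same-numbered libraries did not all deviate together, the block gave 23 calls. Genes called per androgen comparison were 746 to 1666 in the reported fit, 1088 to 2495 with the block and 208 to 1312 with only the groups compared. Against EV they were 733 to 1553, 1203 to 2625 and 245 to 1468, and between rescue lines 6 to 1090, 15 to 1947 and 1 to 806. For interactions they were 0 to 8 in the reported fit, 56 to 100 with limma on log2(FPKM + 1), 10 to 38 with no filter, 2 to 26 with DESeq2 and 2 to 28 with the block. Between NLSKD and NLS the 6 calls became 43 with no filter and 29 with DESeq2. Without the 5 libraries above 9% mitochondrial counts they were 508 to 1362 for androgen, 373 to 1663 against EV and 7 to 719 between rescue lines, and KCNJ3 lost its androgen call in EV (adjusted p = 0.0516) and NLS (0.128). With limma on log2(FPKM + 1) the share of calls against EV under R1881 that were higher was 32.4% for NLS and 34.2% for NLSKD, against 44.8% and 48.8% in the reported fit. Depth limits KCND2 in EV and KCNJ3 in NES.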
